A study of Mus musculus with 13 samples.

Results

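The genes described here make cholesterol and fatty acids, or control the making of them, and were measured in C2C12 cells, a line of mouse myoblasts that divides in rich serum and forms myotubes once serum is withdrawn. They are 32 genes chosen by name, 15 enzymes of sterol synthesis, 6 genes of the SREBP control system and 11 enzymes of fatty acid synthesis. All 32 have a row in the gene-level table of 23236 rows. Not every gene of these pathways is a member. The series holds 13 samples, 4 RNA-seq and 9 ChIP-seq libraries by their labels, of which 2 RNA-seq libraries of myoblasts were used, labelled siNC and siLinc-Yy1. The names are read here as a non-targeting siRNA and an siRNA that targets Linc-Yy1, a noncoding transcript made beside the gene of the transcription factor Yy1. Both libraries are of the same line at the myoblast stage, kept in medium with fetal bovine serum, and both were made from poly(A) RNA. The other 11 libraries were not analysed here.

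Cells build cholesterol from acetyl-CoA through mevalonate, farnesyl pyrophosphate, squalene and lanosterol. They build fatty acids from the same acetyl-CoA through malonyl-CoA and palmitate, which elongases lengthen and desaturases give double bonds. Both branches are controlled by the SREBP transcription factors, which are made as membrane proteins of the endoplasmic reticulum, escorted to the Golgi by Scap when sterol is scarce, and released there by cleavage. Insig proteins hold Scap and SREBP back when sterol is plentiful. The SREBP-2 protein, from Srebf2, acts mainly on sterol genes, and SREBP-1c, from Srebf1, mainly on fatty acid genes. A dividing myoblast needs both products for new membrane.

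Levels are in FPKM, which divides the fragments of a gene by the length of its transcript and by the mapped fragments of the library, so that different genes can be compared. Pairs of values give siNC first. With 1 library per condition there are no replicates and no test was run, and a difference is one between these libraries and not between the conditions. Changes are on the log2 scale after adding 1 FPKM to both values, siLinc-Yy1 minus siNC, a step that shrinks the change of low genes, and ratios are of FPKM itself, siLinc-Yy1 over siNC. Summed FPKM was 365650 in siNC and 457250 in siLinc-Yy1, a ratio of 1.251. The steps of low values in single-exon receptor genes put the depth of siNC at 66.1 M and that of siLinc-Yy1 at 47.6 M fragments, if no further scaling was applied. At these depths a transcript of 1 kb at 20 FPKM holds 1321 and 951 fragments, and counting error alone leaves an unchanged ratio between 0.919 and 1.09 (exact binomial interval, 95%). At 100 FPKM that interval is 0.963 to 1.04, and at 5 FPKM 0.844 to 1.19. These intervals rest on the estimated depth and an assumed length, cover counting error only, and were not used to judge single genes. All 6 myoblast markers reached a mean of 1 FPKM, with a sum of 622 and 817 FPKM. Des was at 322 and 487 FPKM, Itga7 at 117 and 139, Cdh15 at 98.4 and 99.0, Myod1 at 62.5 and 67.0, Myf5 at 18.8 and 21.9 and Pax7, the lowest, at 2.77 and 2.38 FPKM. Of 7 adipocyte markers, 3 reached a mean of 1 FPKM, and the 7 summed to 14.8 and 17.0 FPKM. The 3 were Pparg at 8.04 and 10.4 FPKM, Cebpa at 5.04 and 4.90 and Fabp4 at 1.71 and 1.63. Of the others, Adipoq stood at 0.013 and 0.019 FPKM, Plin1 at 0.0086 and 0.012 and Lep at 0.017 and 0.039. Cidec was listed at 0. None of 4 hepatocyte markers and 1 of 5 macrophage markers, Cd68, reached 1 FPKM. In bulk RNA, fewer cells of a type and less RNA per cell cannot be told apart.

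Of the 32 genes, 31 reached a mean of 1 FPKM, and all 31 lay between 4.79 and 230.2 FPKM. None was called in the authors' deposited table, where 1.62% of rows with status OK were called, 1.29% higher and 0.327% lower. The fatty acid enzymes were higher in siLinc-Yy1 by a median of 0.20 on the log2 scale and the sterol enzymes by 0.030 at the scaling of the table, and both medians were below 0 after rescaling to equal summed FPKM (-0.12 and -0.28). A change of at least 0.32 on the log2 scale, the size used for counting here, was reached by 3 of the 31 genes, Scd2, Scd1 and Fdps, against 7.79% of all rows past the filter. None was lower by that size, against 4.12% of all rows. At 1.5-fold no member was higher or lower, against 3.28% and 0.517% of all rows, nor at 2-fold, against 1.39% and 0.178%. The 3 higher genes were also the 3 most abundant of the set. Counted the same way, all 11792 rows held 919 higher and 486 lower, so that 65.4% of rows past that size were higher. Rescaling the libraries to equal summed FPKM moved the median of all rows from -0.021 to -0.30 and that share to 6.16%, and it left 3 members above 0 and 28 below. Directions below are at the scaling of the table.

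**Figure D1:**
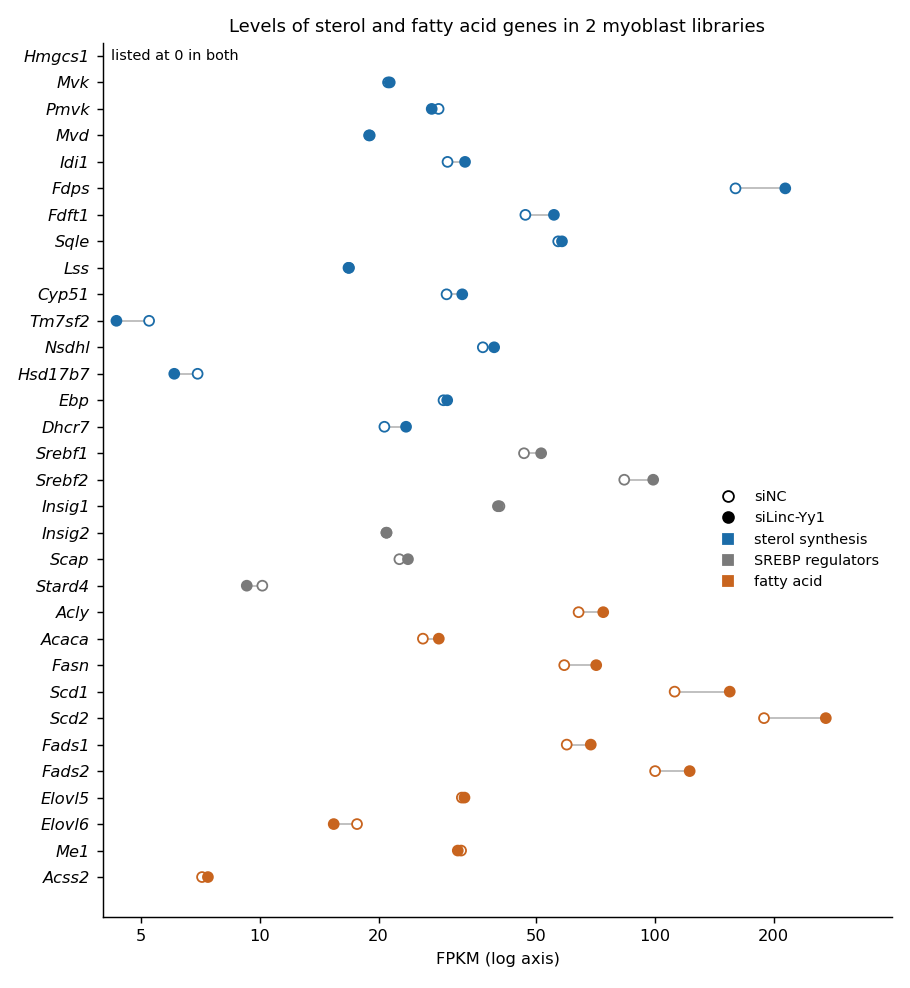
FPKM of each gene on a log axis, in siNC (open circles) and siLinc-Yy1 (filled circles), coloured by branch, with 1 library per condition. Scd2, Fdps, Scd1 and Fads2 have the highest levels and the widest gaps at the top of the scale, while Tm7sf2, Hsd17b7, Stard4 and Elovl6 are lower in siLinc-Yy1 at the scaling of the table, and Hmgcs1 is listed at 0.

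Among the members, the first enzyme of sterol synthesis is Hmgcs1, the cytosolic HMG-CoA synthase, and its row was listed at 0 FPKM in both libraries with status NOTEST. The table places Hmgcs1 on chr13_random (mm9, 308619 to 326235), sequence of chromosome 13 without a fixed position. All 5 rows on chr13_random were at 0 in both libraries, as were 67 of the 88 rows on random sequence of any chromosome. An exact 0 can be a failed estimate, and whether Hmgcs1 was expressed cannot be read from this row. It enters no median or count below.

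RefSeq promoters (GRCm38.p6) were matched by symbol for 25 of the 32 genes, with 34 start sites. The 250 bases before each start were searched on both strands. The 7 genes without an entry were Fdps, Fdft1, Sqle, Stard4, Scd1, Scd2 and Fads1, and they were not searched. The letters looked for were the sterol regulatory element core TCACNCCAC, bound by SREBP, the E-box CACGTG, which SREBP-1 and other factors bind, CCAAT, bound by NF-Y, and GGGCGG, bound by Sp1. NF-Y and Sp1 are the usual partners of SREBP at sterol genes. Below are Hmgcs1, Insig1, which has an E-box, Fasn and Fads2. Hmgcs1 is shown because it held the only TCACNCCAC among the 25 genes searched. Fads2 is the gene with the largest change that has a promoter entry. Capitals mark any of the 4 motifs on either strand, and in Fasn a CCAAT on each strand overlaps the other. The windows are chr13:119690101-119690350 on the plus strand for Hmgcs1, chr5:28071162-28071411 on the plus strand for Insig1, chr11:120824548-120824797 on the minus strand for Fasn and chr19:10101504-10101753 on the minus strand for Fads2.
Hmgcs1: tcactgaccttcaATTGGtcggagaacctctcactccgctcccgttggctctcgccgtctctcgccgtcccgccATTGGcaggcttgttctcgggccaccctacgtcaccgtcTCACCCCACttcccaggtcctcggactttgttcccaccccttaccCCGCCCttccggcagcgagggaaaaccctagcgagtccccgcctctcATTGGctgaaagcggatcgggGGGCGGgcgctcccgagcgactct
Insig1: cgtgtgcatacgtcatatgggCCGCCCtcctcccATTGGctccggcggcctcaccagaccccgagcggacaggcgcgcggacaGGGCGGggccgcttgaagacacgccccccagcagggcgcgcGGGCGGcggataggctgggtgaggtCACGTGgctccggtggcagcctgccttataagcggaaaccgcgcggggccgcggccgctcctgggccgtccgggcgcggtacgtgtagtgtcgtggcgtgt
Fasn: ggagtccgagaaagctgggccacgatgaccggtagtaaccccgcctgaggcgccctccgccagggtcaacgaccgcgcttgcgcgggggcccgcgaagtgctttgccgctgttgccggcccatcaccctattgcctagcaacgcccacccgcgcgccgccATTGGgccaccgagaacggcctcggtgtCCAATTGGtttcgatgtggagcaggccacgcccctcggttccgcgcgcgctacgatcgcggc
Fads2: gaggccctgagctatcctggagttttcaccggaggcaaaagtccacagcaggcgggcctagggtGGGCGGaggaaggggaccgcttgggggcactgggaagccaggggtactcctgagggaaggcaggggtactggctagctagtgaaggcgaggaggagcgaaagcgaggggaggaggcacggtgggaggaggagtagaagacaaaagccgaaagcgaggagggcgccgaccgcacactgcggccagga

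The TCACNCCAC match in Hmgcs1 begins at position -137 from the start site and reads TCACCCCAC. This motif was in 1 of 34 member promoters (2.94%), against 1.05% of all 32851 promoters in the reference. CACGTG was in 5 member promoters (14.7%, against 6.02% of all), those of Insig1, Scap, Dhcr7, Hsd17b7 and Elovl5. In Insig1 it begins at position -101. CCAAT was in 21 of the 34 (61.8%, against 33.8% of all), among them 12 of the 15 promoters of sterol enzymes and 4 of the 9 of fatty acid enzymes. GGGCGG was in 23 of the 34 (67.6%, against 32.7% of all), among them 12 of 15 sterol and 4 of 9 fatty acid promoters. The longer form of the sterol regulatory element, which extends the core by a base, and the LXR receptor direct repeat were in none of the 34, and in 0.0731% and 0.0152% of all promoters. These are matches of letters and not measured binding. The search took only the stated letters within 250 bases, so variant or more distant sites would be missed.

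The early mevalonate enzymes differed little. Mvk, mevalonate kinase (chromosome 5, 114894314 to 114910599), measured 21.1 and 21.3 FPKM. Pmvk, which adds the second phosphate, measured 28.4 and 27.3 FPKM. Mvd, which makes isopentenyl pyrophosphate, measured 18.9 and 19.0 FPKM. The ratios of these 3 genes were 1.01, 0.961 and 1.00.

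Next come the enzymes that join isoprene units. Idi1, the isomerase of isopentenyl pyrophosphate, measured 29.9 and 33.1 FPKM, a ratio of 1.11. Fdps, which makes farnesyl pyrophosphate (88897509 to 88905889 on chromosome 3), was the most abundant sterol gene and stood at 160.2 and 214 FPKM, a ratio of 1.34. In the authors' deposited table Fdps had the lowest p-value of all members, 0.0629, with a q-value of 0.638. Its level was 2.81 times that of Sqle in siNC and 3.68 times in siLinc-Yy1.

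Farnesyl pyrophosphate is committed to sterols by Fdft1, squalene synthase, which measured 47.1 and 55.6 FPKM, a ratio of 1.18. Fdft1 shares its locus in the table with Ctsb, a cathepsin at 100.9 and 146 FPKM, and whether fragments were divided between them cannot be seen from the table. Sqle, squalene epoxidase, the second rate-limiting enzyme of the pathway, measured 57.0 and 58.3 FPKM. Lss, which closes the ring to lanosterol, measured 16.8 FPKM in both libraries. Neighbouring steps of the chain thus stood at different ratios, 1.34 for Fdps, 1.18 for Fdft1, 1.02 for Sqle and 0.997 for Lss. This order did not hold once the median change of rows of like level was subtracted, a step described below. Fdps then stood at 0.059 on the log2 scale, Fdft1 at 0.13, Sqle at -0.086 and Lss at 0.039.

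The enzymes after lanosterol were mixed. Cyp51, the lanosterol demethylase, measured 29.7 and 32.6 FPKM, and Dhcr7, which makes cholesterol in the last step of one route, 20.7 and 23.5 FPKM. Nsdhl, a sterol dehydrogenase, measured 36.7 and 39.2 FPKM, and Ebp, the sterol isomerase, 29.2 and 29.8 FPKM. The 2 lowest members of the branch were lower in siLinc-Yy1. Tm7sf2, a sterol C14 reductase, measured 5.25 and 4.34 FPKM and shares its locus with 1110014N23Rik, at 18.3 and 18.2 FPKM. Hsd17b7, a ketosteroid reductase of the same stretch, measured 6.96 and 6.08 FPKM. The ratios ranged from 0.827 (Tm7sf2) to 1.13 (Dhcr7).

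Over the 14 measured sterol enzymes, 10 changes were above 0 and 4 below, with a median of 0.030. All rows past the filter had a median of -0.021, with 45.4% above 0. Summed over the branch, FPKM was 508 in siNC and 581 in siLinc-Yy1. As a share of all FPKM in the library this was 0.139% and 0.127%.

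The control genes followed no common direction. Srebf2, the sterol regulator (chromosome 15, 81977698 to 82035390), measured 83.8 and 99.1 FPKM, and Srebf1 measured 46.7 and 51.6 FPKM. Srebf1 shares its locus with Rai1, at 11.5 and 12.5 FPKM, and the table does not separate the SREBP-1a and SREBP-1c transcripts. Srebf2 was the more abundant of the pair in both libraries, 1.79 times Srebf1 in siNC and 1.92 times in siLinc-Yy1. Insig1, which is itself a classical SREBP target, measured 40.5 and 40.1 FPKM, and Insig2 20.9 FPKM in both. The Insig1 to Insig2 ratio was 1.93 and 1.92. Scap, the escort protein, measured 22.6 and 23.7 FPKM. Stard4, a sterol carrier whose gene SREBP-2 induces, measured 10.2 and 9.27 FPKM. Of these 6 genes, 3 were above 0 and 3 below, with a median of 0.034 and changes from -0.12 (Stard4) to 0.24 (Srebf2).

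The Srebf2 gene also holds miR-33, a microRNA known to repress the cholesterol exporter Abca1, and it is shown here because its row shares the Srebf2 locus.
mmu-miR-33-5p: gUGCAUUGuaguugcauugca

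Capitals mark the seed, bases 2 to 8 (RefSeq, GRCm38.p6, chr15:82198127-82198147, plus strand). The Mir33 row was listed at 0 in both libraries with status NOTEST. Both libraries were selected for poly(A), a tail that mature microRNAs lack. Why the row was at 0 was not tested. Abca1 itself was below the filter, at 0.859 and 0.753 FPKM.

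In the fatty acid branch, Acly, which cuts citrate to give cytosolic acetyl-CoA, measured 64.2 and 74.1 FPKM. Acss2, which makes acetyl-CoA from acetate, was the lowest member of the branch at 7.15 and 7.40 FPKM. Acly thus stood at 8.98 and 10.0 times the level of Acss2. Acaca, acetyl-CoA carboxylase 1, the committed step, measured 25.9 and 28.4 FPKM. Its mitochondrial partner Acacb, which restrains fatty acid oxidation, was at 0.229 and 0.211 FPKM, so Acaca made up 99.1% and 99.3% of the pair. Fasn, fatty acid synthase (120667271 to 120685861 on chromosome 11), stood at 59.0 and 71.1 FPKM, a ratio of 1.20. Me1, malic enzyme, which supplies NADPH, measured 32.4 and 31.7 FPKM.

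The stearoyl-CoA desaturases put the first double bond into saturated fatty acids, and their genes lie side by side on chromosome 19. Scd2 (44368165 to 44381352) was the most abundant member, at the 98.0th percentile of rows past the filter. It measured 189 and 271 FPKM, a ratio of 1.43. Scd1 (44468939 to 44482199) measured 112 and 155 FPKM, a ratio of 1.38. The paralogs Scd3 (9.40 and 9.15 FPKM) and Scd4 (6.98 and 6.80 FPKM) were low. The 4 genes resemble each other in sequence, so the division of fragments among them is uncertain. In the sum of the family, Scd2 made up 59.5% and 61.3%, and Scd1 35.3% and 35.0%. The makeup of the family therefore moved by less than 2 percentage points while its sum went from 318 to 442 FPKM.

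Fads1 and Fads2, the desaturases of polyunsaturated fatty acids, form another cluster on chromosome 19. Fads2 (10138653 to 10175993) measured 100.3 and 123 FPKM, a ratio of 1.22. Fads1 measured 59.9 and 68.9 FPKM, a ratio of 1.15. Their neighbour Fads3, which is no member, measured 50.6 and 59.3 FPKM. Fads2 made up 47.6% and 48.9% of the cluster. All 3 genes were thus higher in siLinc-Yy1 by like ratios at the scaling of the table, and the changes of Fads1 and Fads2 turned negative under rescaling to equal totals.

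The elongases differed from each other. Elovl6, which lengthens palmitate, measured 17.6 and 15.4 FPKM, a ratio of 0.873, the lowest of the branch. Elovl5, which lengthens polyunsaturated chains, measured 32.5 and 33.0 FPKM. The most abundant elongase was Elovl1, which makes very long saturated chains and is no member, at 62.3 and 73.7 FPKM. Elovl1 made up 53.6% and 58.8% of the summed family, and Elovl6 15.2% and 12.3%. Elovl2, Elovl3 and Elovl7 were all below 0.5 FPKM in both libraries.

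**Figure D2:**
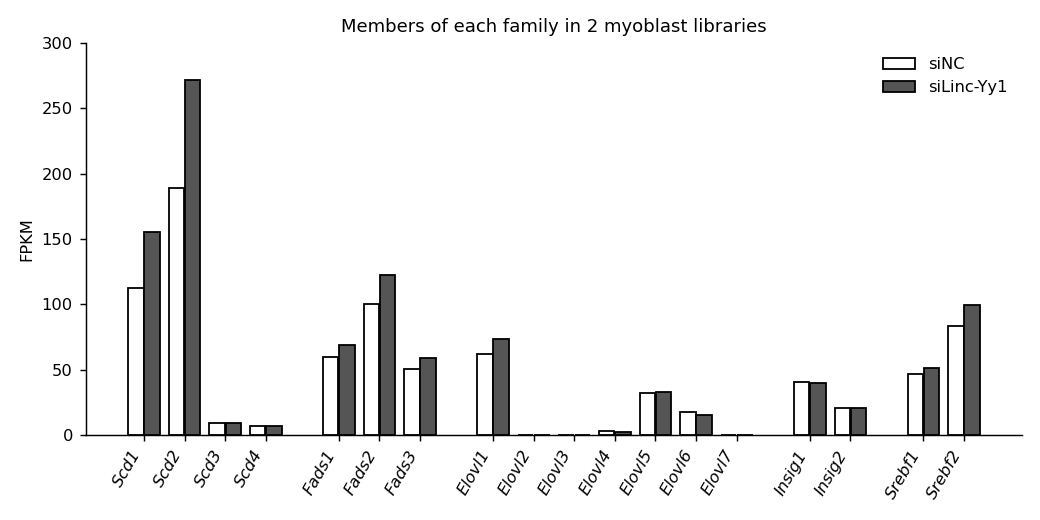
FPKM of the genes of 5 families (axis from 0), in siNC (white bars) and siLinc-Yy1 (grey bars), with 1 library per condition and therefore no error bars. Scd2 and Scd1 make up most of their family, Fads2 stands above Fads1 and Fads3, Elovl1 above Elovl5 and Elovl6, Insig1 above Insig2, and Srebf2 above Srebf1, in both libraries.

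Over the 11 fatty acid enzymes, 9 changes were above 0 and 2 below (Elovl6 and Me1), with a median of 0.20. Summed FPKM of the branch was 700.4 in siNC and 879 in siLinc-Yy1. The ratio, 1.255, is close to that of all FPKM in the libraries, and the share of the branch in all FPKM was 0.192% in both. The sum of the sterol enzymes had a ratio of 1.14 and that of the control genes 1.09. Such sums weigh abundant genes most. Fdps went from 160.2 to 214 FPKM in the sterol sum. In the fatty acid sum Scd2 went from 189 to 271 FPKM and Scd1 from 112 to 155 FPKM. The difference between the branches, as sterol median minus fatty acid median, was -0.17.

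The branches also differed in level. The median of the mean FPKM was 64.4 for the fatty acid enzymes and 28.7 for the sterol enzymes. Across all rows the change grew with the level, with medians of -0.078 for rows of 1 to 20 FPKM, 0.026 for 20 to 50 FPKM, 0.15 for 50 to 100 FPKM and 0.32 for 100 to 400 FPKM. The members showed the same order. Of the 7 members below 20 FPKM, 5 were below 0, with a median of -0.12. Of the 14 members of 20 to 50 FPKM, 10 were above 0, with a median of 0.049. All 6 members of 50 to 100 FPKM and all 4 of 100 to 400 FPKM were above 0, with medians of 0.22 and 0.44. Across the 31 genes the change correlated with log2 of the mean FPKM at a Pearson's r of 0.88 and a Spearman's rho of 0.81, and within the 14 sterol and 11 fatty acid enzymes r was 0.89 and 0.85. This is a description across genes that share 2 libraries, and genes are not replicates. Over all 11792 rows r was 0.36 and rho 0.47.

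**Figure D3:**
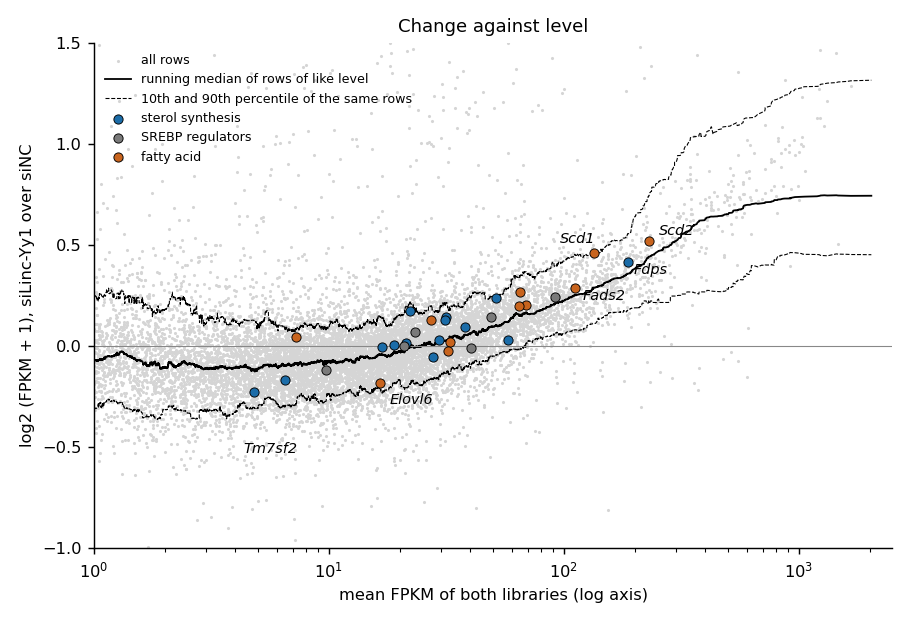
Change of each row past the filter (grey) against its mean FPKM on a log axis, with the running median of rows of like level (solid line), the 10th and 90th percentiles of the same rows (dashed lines) and the members coloured by branch. The members follow the rise of the running median with level, and only Scd1 lies above the upper dashed line. The vertical axis is limited, so rows with larger changes are not shown.

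Each member was then set beside rows of its own level, by subtraction of a running median over 150 rows on each side in order of mean FPKM. The fatty acid median became 0.050 and the sterol median 0.036, and the difference between the branches fell to -0.014. The control genes had a median of 0.029. Across the 31 genes r with the level was then 0.35 and rho 0.31, and over all rows 0.012 and 0.0077. Of the 31 members, 22 lay above the running median of their level and 9 below, against 49.9% of all rows above it. No member was 0.32 from it in either direction. Within the 10th to 90th percentile of rows of its level lay 30 of the 31. The exception was Scd1, at 0.460 against a 90th percentile of 0.453, and 9.93% of all rows lay above this bound. None was below the 10th percentile of its level, against 9.9% of all rows.

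Less the running median, the highest members were Dhcr7 (0.18), Scd1 (0.17), Fdft1 (0.13), Acss2 (0.13), Acaca (0.12), Fasn (0.12) and Idi1 (0.12). The lowest were Elovl6 (-0.14), Tm7sf2 (-0.11), Sqle (-0.086), Insig1 (-0.077) and Hsd17b7 (-0.074). Scd2 and Fdps, at the top before, stood at 0.076 and 0.059. The classical SREBP targets Sqle and Insig1 were thus below rows of their level while Idi1, Fdft1, Cyp51 (0.10) and Fasn were above, and all of these differences were within the spread of such rows.

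**Figure D4:**
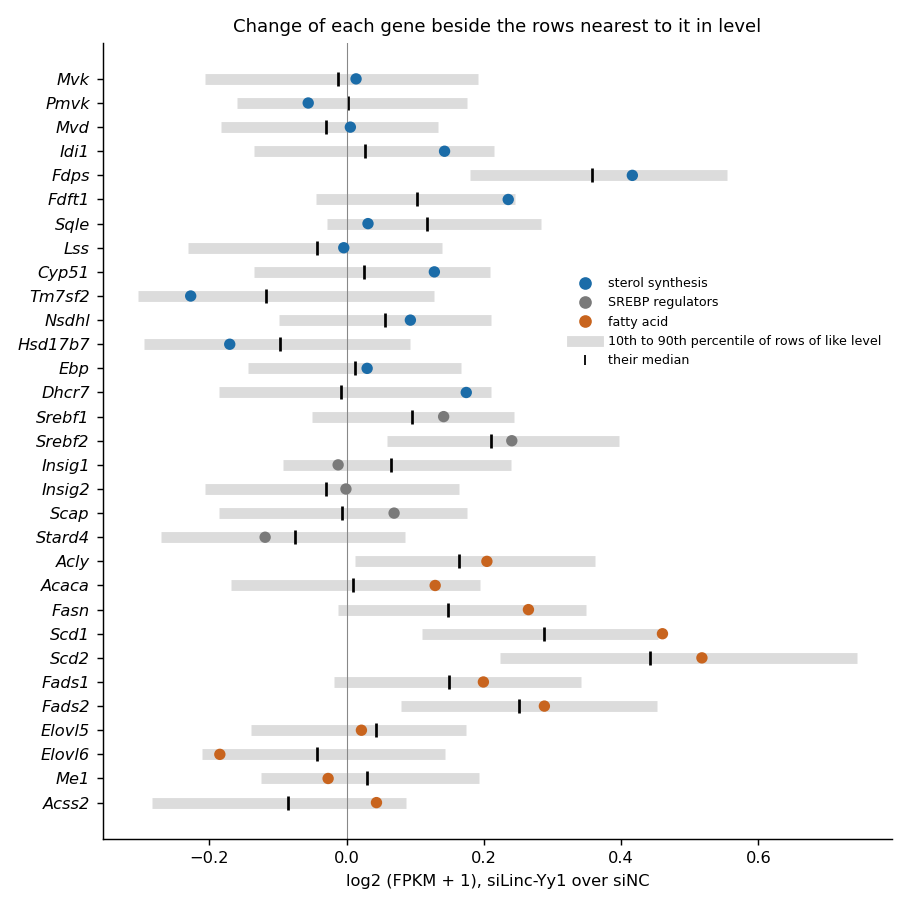
Change of each member (points, coloured by branch) beside the median (black tick) and the 10th to 90th percentile (grey bar) of the rows nearest to it in mean FPKM. The points of 30 of the 31 members lie within their grey bars, and Scd1 lies just outside.

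Other genes of the pathways, from lists chosen by role, gave 128 rows, of which 117 passed the filter, 53 above 0 and 64 below, with a median of -0.018. Of the 117, 4 were higher by at least 0.32 (Tecr, Slc25a1, Mid1ip1 and Npc2) and 2 lower (Pdss2 and Hadhb), against 7.79% and 4.12% of all rows. The authors' deposited table called none of them. Of 4 further sterol enzymes, 2 were above 0 and 2 below. Sc4mol, a methyl oxidase, measured 40.6 and 45.6 FPKM, and Hsd3b7, a steroid dehydrogenase of bile acid synthesis, 11.1 and 10.5 FPKM. Acat2, cytosolic thiolase, which acts before Hmgcs1, measured 54.9 and 48.9 FPKM and lay below the 10th percentile of rows of its level, at -0.26 less the running median. Of 12 genes of isoprenoid side branches 5 were above 0 and 7 below. Pdss1 measured 7.66 and 6.40 FPKM, Fntb 17.5 and 19.0 FPKM and Icmt 19.0 and 17.5 FPKM. Fntb was the 1 gene of the 12 above the 90th percentile of rows of its level. The largest change of that list was of Pdss2, a subunit of the enzyme that makes the side chain of coenzyme Q, at 3.79 and 2.58 FPKM (-0.42), below the 10th percentile of rows of its level. It is named after its values were seen, since its mean lies under 5 FPKM.

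Among 16 genes that process or degrade SREBP and its partners, 8 were above 0 and 8 below. Of the 16, 4 lay above the 90th percentile of rows of their level, the 3 named next among them, and 1 below the 10th. Of all rows 9.93% and 9.9% lie beyond these bounds. Ube2j2, a ubiquitin-conjugating enzyme (5.62 and 6.98 FPKM), Paqr3, a Golgi anchor of Scap (5.25 and 6.31 FPKM), and Sec23a, a coat protein of vesicles leaving the endoplasmic reticulum (26.5 and 30.7 FPKM), changed most. Of 15 measured genes of sterol handling and LXR targets, 7 were above 0 and 8 below. Above the 90th percentile of rows of their level lay 3 of the 15, Npc2 and Scarb1 among them, and 1, Lipa, lay below the 10th. Npc2, a cholesterol carrier inside the lysosome, measured 81.2 and 113 FPKM and stood at 0.25 less the running median. Lipa, which frees cholesterol from esters in the same compartment, went the other way, at 16.7 and 14.0 FPKM. Scarb1, a lipoprotein receptor, measured 27.3 and 31.8 FPKM.

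Of 23 further genes listed under fatty acid synthesis and NADPH supply, 12 were above 0 and 11 below. The list also holds Stk11 (71.5 and 78.4 FPKM) and Mlycd (4.58 and 4.15 FPKM), which are enzymes of neither. Tecr, the last enzyme of the elongation cycle, measured 173 and 251 FPKM. Slc25a1, which exports citrate from mitochondria to Acly, measured 60.3 and 81.1 FPKM. Mid1ip1, an activator of acetyl-CoA carboxylase, measured 48.0 and 62.9 FPKM. Less the running median the list had a median of -0.025, with 9 genes above and 14 below. Slc25a1 (0.26) and Mid1ip1 (0.27) lay above the 90th percentile of rows of their level, where 9.93% of all rows lie, whereas Tecr stood at 0.14. Acsl5, an acyl-CoA synthetase (35.8 and 31.9 FPKM), and Me2, the mitochondrial malic enzyme (40.4 and 36.9 FPKM), lay below the 10th percentile, where 9.9% of all rows lie; these 2 were picked once values were known. The q-values of these 3 genes in the authors' deposited table were 0.366 (Tecr), 0.400 (Slc25a1) and 0.567 (Mid1ip1).

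**Figure D5:**
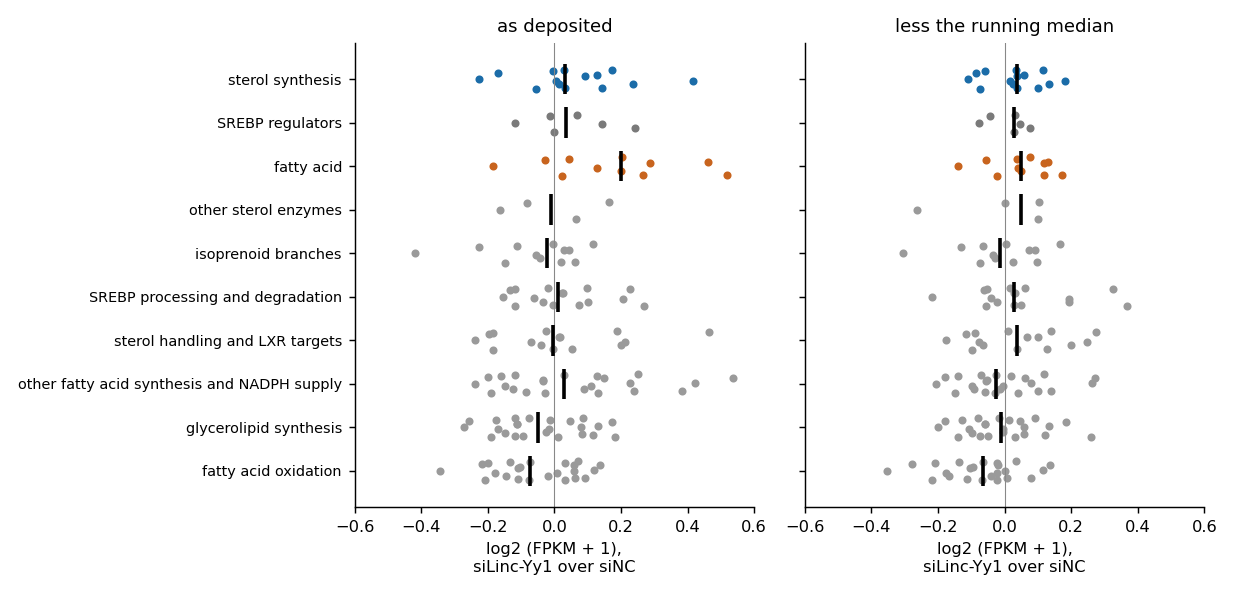
Change of each gene (points) and the median (black bar) by list, at the scaling of the table (left) and less the running median of rows of like level (right). The fatty acid enzymes have a median of 0.20 on the left and 0.050 on the right, close to the sterol enzymes at 0.036.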

How the data were processed

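The members and all gene lists were chosen with earlier results of these data known. The RNA-seq values are FPKM that the authors estimated per gene with Cuffdiff, per the file headers, in 1 table deposited in 2 identical copies, of which 1 was read. Its p-values and q-values are the authors' own test on the same 2 libraries, per the file headers. Alignment and quantification used TopHat2 2.0.4, Cufflinks 2.1.1 and Cuffdiff 2.0.4 with build mm9, per the submitters' processing notes. For annotation, strand use and scaling between libraries nothing is given in the sources used here. The first value column was read as siNC and the second as siLinc-Yy1, the order in the header.

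Rows with a mean of at least 1 FPKM were kept. Changes used a pseudocount of 1 FPKM, the size counted was 0.32 on the log2 scale, and the running median took 150 rows on each side in order of mean FPKM. Depth came from a line fitted to 1/FPKM against length for receptor rows at 1 fragment. With a tolerance of 0.02 fragments, 59.0% of 597 short receptor rows above 0 in siNC came to a whole number of fragments. In siLinc-Yy1 this was 49.9% of 503. Both counts include the rows used for the fit, 245 in siNC and 160 in siLinc-Yy1, so these shares are no independent check. No count test was therefore run, and intervals from this depth are a guide to precision only. Named genes were all members and, per further list, the 3 of at least 5 FPKM with the largest change, and others in the text were picked after their values were seen. Some genes of the further lists are not reported here. Other scalings, filters, pseudocounts and folds were tried. Python 3.11.15, pandas 2.3.3 and scipy 1.17.1 were used. The change and the running median were tried on simulated data with 2-fold changes, at a mean of at least 5 FPKM. The depth fit, the motif search and the list counts were not tried in this way.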

Additional observations from a re-analysis of the deposited data

How the results depend on the processing

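No paired analysis was possible because each condition has 1 library. Medians of the branches moved by less than 0.1 with pseudocounts of 0.1 and 5 FPKM, without a filter, with a mean of at least 5 FPKM, centred on the median, or with status OK alone. Rescaling to equal summed FPKM turned them to -0.28 (sterol), -0.27 (SREBP regulators) and -0.12 (fatty acid), with 0 members higher and 7 lower, and 347 and 5290 of all genes. Subtraction of the running median gave 0.050 for fatty acid genes, -0.014 for sterol minus fatty acid, 0 members higher, and 575 and 287 of all genes higher and lower. Members higher were also 0 at 1.5-fold, at 2-fold and in the authors' deposited table. All genes higher and lower were 387 and 61 at 1.5-fold, 164 and 21 at 2-fold, and 186 and 47 in the authors' deposited table. All genes lower were 854 and 116 with pseudocounts of 0.1 and 5 FPKM, and 229 at a mean of at least 5 FPKM. The cause of these shifts was not tested. Among single members, 19 changed sign under rescaling, 4 after subtraction of the running median and 3 when centred. With 1 library per condition and depth only estimated, changes of low genes are the least certain.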

Other observations

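Genes of fatty acid oxidation and of glycerolipid synthesis formed 2 further lists. Of 23 measured genes of fatty acid oxidation, 10 were above 0 and 13 below, with a median of -0.073. Less the running median of rows of like level, 6 were above and 17 below, with a median of -0.065. Of all 117 genes of the further lists, 12 lay under the 10th percentile of rows of their level and 11 above the 90th. In this list 5 lay under the 10th percentile, where 9.9% of all rows lie, and 0 above the 90th. Those 5 were Hadhb, the beta subunit of the mitochondrial trifunctional protein (30.5 and 23.8 FPKM), Acads (24.1 and 20.8 FPKM), Acadvl (39.3 and 34.6 FPKM), Etfa (50.4 and 43.8 FPKM) and Acaa2 (62.6 and 61.8 FPKM). Acaa2 was only just under that percentile, at a change of -0.019 against -0.016. Hadha, the alpha subunit that works in the same complex as Hadhb, measured 51.3 and 51.6 FPKM. Acaa1a, a peroxisomal thiolase, measured 18.9 and 16.1 FPKM. Acadvl, Etfa, Acaa2 and Hadha were named after their values were seen. No gene of the list was called in the authors' deposited table.

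Of 24 genes of glycerolipid synthesis, 9 were above 0 and 15 below, with a median of -0.050, or -0.011 less the running median, where all rows had a median of -0.021 before this step. Lpin2, a phosphatidate phosphatase, measured 11.3 and 9.21 FPKM and Agpat5 10.3 and 8.49 FPKM. Gpam, the first enzyme of glycerolipid synthesis, measured 8.49 and 7.32 FPKM. Of the 24, 1 lay below the 10th percentile of rows of its level, Lpin2, and 1 above the 90th. Pparg, the adipogenic nuclear receptor and a marker of adipocytes, measured 8.04 and 10.4 FPKM. Its change of 0.34 lay above the 90th percentile of rows of its level, 0.081, where 9.93% of all rows lie. Cebpa measured 5.04 and 4.90 FPKM and Fabp4 1.71 and 1.63 FPKM, both within the 10th to 90th percentile of their level. No adipocyte marker was called in the authors' deposited table.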
